A study of Mus musculus with 48 samples.

Results

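Among the lesion-free aortas of mice given β-aminopropionitrile (BAPN), those holding most Spp1 transcript were compared with those holding least. Spp1 encodes osteopontin. The libraries were selected on Spp1 itself, in counts per 1000000 counts of the library (CPM). The 2 highest and 2 lowest of the 4 MaNonAD libraries and the 3 highest and 3 lowest of the 8 FeNonAD libraries were taken, which gave 5 Spp1-high and 5 Spp1-low libraries, 10 of the 48 in the series. Spp1 levels therefore only describe the choice and are no result.

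Osteopontin is a secreted, acidic phosphoprotein that binds integrins and CD44 and is made in the vessel wall by macrophages and by smooth muscle cells that have left the contractile state. Monocytes enter an inflamed artery through the chemokine receptor CCR2 and can become macrophages or dendritic cells. Cells that present antigen to helper T cells load peptides onto MHC class II molecules, which the invariant chain CD74 escorts and the protease cathepsin S helps to free for loading.

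RNA of the thoracic aorta was measured, 1 library per mouse, in wild-type C57BL/6J mice that were 3 weeks old at the start. The NonAD mice, male (Ma) and female (Fe), had drunk water with 0.4% BAPN, which blocks the cross-linking of collagen and elastin, for 28 days and had no aortic lesion to the eye or under the microscope. The other groups used here were 20 Con mice given plain water (10 MaCon, 10 FeCon) and 16 AAD mice with the same BAPN treatment and an aortic dissection or aneurysm (7 MaAAD, 9 FeAAD). All groups share strain, starting age and duration, and the deposited expected counts were rounded and tested with edgeR.

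The 5 Spp1-high libraries held 199 CPM of Spp1 in MaNonAD1, 69.9 in MaNonAD3, 210 in FeNonAD8, 43.4 in FeNonAD5 and 36.5 in FeNonAD6. The 5 Spp1-low libraries held 12.1 CPM in MaNonAD4, 4.49 in MaNonAD2, 11.1 in FeNonAD7, 10.8 in FeNonAD2 and 3.37 in FeNonAD1. Values below follow this order of libraries. At the border, the lowest high FeNonAD library (36.5 CPM) stood next to FeNonAD3 at 32.5 CPM, and the highest low one (11.1 CPM) next to FeNonAD4 at 17.4 CPM, and these middle libraries were left out of the comparison. The 20 Con libraries held 0.877 to 4.53 CPM of Spp1 and the 16 AAD libraries 69.3 to 4233 CPM.

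Library totals ranged from 14967164 to 16322966 counts over the 10 libraries. The Spp1-high libraries averaged 15761960 ± 400129 (SD, n = 5) and the Spp1-low libraries 15511237 ± 440432 (SD, n = 5), a difference no larger than other assignments within the groups gave (two-sided exact permutation test, p = 0.5). Contractile smooth muscle genes such as Acta2 were abundant in all 10 libraries, from 10261 to 24703 CPM.

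Clock genes stood apart in the 3 Spp1-high FeNonAD libraries. Dbp, a transcription factor driven directly by the circadian clock, was at 372 and 233 CPM in the high MaNonAD libraries but at 24.7, 3.65 and 6.80 CPM in the high FeNonAD libraries. In the low libraries Dbp was at 228, 447, 264, 366 and 391 CPM. The core clock activator Arntl ran the other way, at 31.2, 66.0 and 48.3 CPM in the high and 5.22, 1.47 and 1.21 CPM in the low FeNonAD libraries. Of 14 clock genes, 10 were lower and 2 higher at an unadjusted p under 0.05, against 5.02% and 7.08% of all genes, with a median log2 fold change of -1.13. Over MaNonAD alone that median was -0.13 and over FeNonAD alone -1.83. The labels used here give no time of day for any library. By the study's methods, faeces were sampled on a single day in the morning, in random order over cages and sexes, just before the mice were killed. Among the 6 FeNonAD libraries compared, Spp1 level and clock gene level cannot be told apart. The middle libraries FeNonAD3 and FeNonAD4 were at 395 and 308 CPM of Dbp, as high as the low libraries. The MaNonAD high and low libraries overlapped in Dbp.

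The comparison of Spp1-high with Spp1-low libraries asked which other transcripts rise with Spp1 among aortas without a visible lesion. Of 13822 genes tested, 6 rose, defined as a Benjamini-Hochberg (BH) adjusted p under 0.05 and at least a doubling: Ccr2, H2-Eb1, Ctss, H2-Aa, Cd74 and Lyz1. They made up 0.0434% of the genes tested. Marcks, an actin-linked substrate of protein kinase C, brought the number past the adjusted p alone to 7, or 0.0506%. None of the genes tested fell by these limits in edgeR (0.0% of genes), although 694 were lower at an unadjusted p under 0.05 (5.02%) and 979 higher (7.08%). DESeq2 on the same libraries called 210 higher and 23 lower.

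The counts rest on few libraries. With FeNonAD1, FeNonAD2, FeNonAD6, FeNonAD7 or MaNonAD3 left out, 0 genes passed as higher in edgeR and 1330 to 1746 had an unadjusted p under 0.05, while 63 passed as higher without FeNonAD5 and 45 without MaNonAD4. With Dbp level added to the fit, a choice made after seeing the data, 0 genes passed and 1053 had an unadjusted p under 0.05, and the 6 genes had log2 fold changes of 0.90 to 3.18 with adjusted p up to 0.168. With all 48 libraries in the fit 6 genes passed as higher, but 0 of the 6 reported here were among them (highest adjusted p 0.567), although their log2 fold changes were 1.13 to 2.52 and 891 genes had an unadjusted p under 0.05.

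Of the 6 genes, 3 belong to MHC class II presentation. H2-Aa, the alpha chain of the I-A molecule, stood at 134, 141, 153, 87.3 and 114 CPM in the Spp1-high libraries and at 51.2, 60.4, 36.9, 49.4 and 44.0 CPM in the Spp1-low libraries. Every high library was above every low one. Its log2 fold change was 1.36 ± 0.15 (SE), a 2.57-fold rise (adjusted p = 0.0174). H2-Eb1, the beta chain of the I-E molecule, stood at 106, 118, 124, 60.7 and 83.6 CPM against 34.7, 49.1, 29.3, 35.3 and 32.6 CPM. The groups again did not overlap, and the log2 fold change was 1.42 ± 0.18 (SE, BH-adjusted p = 0.0253). Cd74, the invariant chain, stood at 364, 401, 397, 204 and 293 CPM against 144, 193, 116, 125 and 121 CPM. It rose by 1.23 ± 0.17 on the log2 scale (SE, BH-adjusted p = 0.0318), with every high value above every low value.

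The promoters of 2 of these genes and of H2-DMb1, which encodes part of the peptide-loading molecule H2-DM and was higher without passing the test, are shown because MHC class II promoters share an X box and a Y box that act together. The sequences are the 120 bases just before the RefSeq start in GRCm38.p6, 5′ to 3′ on the gene's strand. H2-Aa lies at chr17:34287824-34287943 (minus strand), H2-Eb1 at chr17:34305747-34305866 (plus strand) and H2-DMb1 at chr17:34153071-34153190 (plus strand). Capitals mark the Y box letters GATTGG and the X box letters AACTGATG, searched on both strands (CCAATC and CATCAGTT on the other), and the X box letters were chosen after these sequences were read.
H2-Aa: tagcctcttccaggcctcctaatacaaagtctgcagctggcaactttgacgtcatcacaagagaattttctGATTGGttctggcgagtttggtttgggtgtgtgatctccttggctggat
H2-Eb1: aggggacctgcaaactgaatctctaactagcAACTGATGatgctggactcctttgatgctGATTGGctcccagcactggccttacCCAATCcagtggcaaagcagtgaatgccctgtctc
H2-DMb1: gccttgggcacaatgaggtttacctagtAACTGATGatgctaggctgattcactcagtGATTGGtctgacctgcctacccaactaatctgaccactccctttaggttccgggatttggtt

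The Y box letters began 49 bases before the start in H2-Aa, 60 in H2-Eb1 and 62 in H2-DMb1. The X box letters began 89 bases before the start in H2-Eb1 and 92 in H2-DMb1 and were not in the window of H2-Aa. Over 250 bases before the start, 14.6% of the 32851 promoters in the table held the Y box letters, 0.676% the X box letters and 0.0883% both. Of the 10 genes on the list for dendritic cells and MHC class II that have a promoter in the table, 5 held the Y box letters. These matches describe sequence and do not show that a factor was bound.

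Other MHC class II genes did not pass the adjusted test. H2-Ab1, the beta chain that pairs with H2-Aa, stood at 104, 120, 140, 57.3 and 81.5 CPM against 38.7, 48.5, 34.4, 35.1 and 30.0 CPM. Its groups did not overlap, and its log2 fold change of 1.41 ± 0.21 (SE) had an adjusted p of 0.0502, just outside the limit. Ciita, the master coactivator of MHC class II genes, had a log2 fold change of 1.64 ± 0.35 (SE, BH-adjusted p = 0.0745), with 3.61 to 9.73 CPM in the high and 0.998 to 3.24 CPM in the low libraries. H2-DMb1 had 0.89 ± 0.16 (SE, BH-adjusted p = 0.0544) and Flt3, a growth factor receptor of dendritic cells, 2.46 ± 0.42 (SE, BH-adjusted p = 0.0526) at 2.20 CPM or less in every library. Flt3 had at most 6 counts in any low library, so it passed the filter on low counts only through the high ones. Its rise is therefore no support. Of the 12 tested genes on the list for dendritic cells and MHC class II, 9 were higher at an unadjusted p under 0.05, where 7.08% of all genes were. The same number did not overlap within either group, where 3.49% of all genes did not overlap in that direction. Both counts include Flt3. The median log2 fold change of the list was 1.30 against -0.02 over all genes tested.

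**Figure D1:**
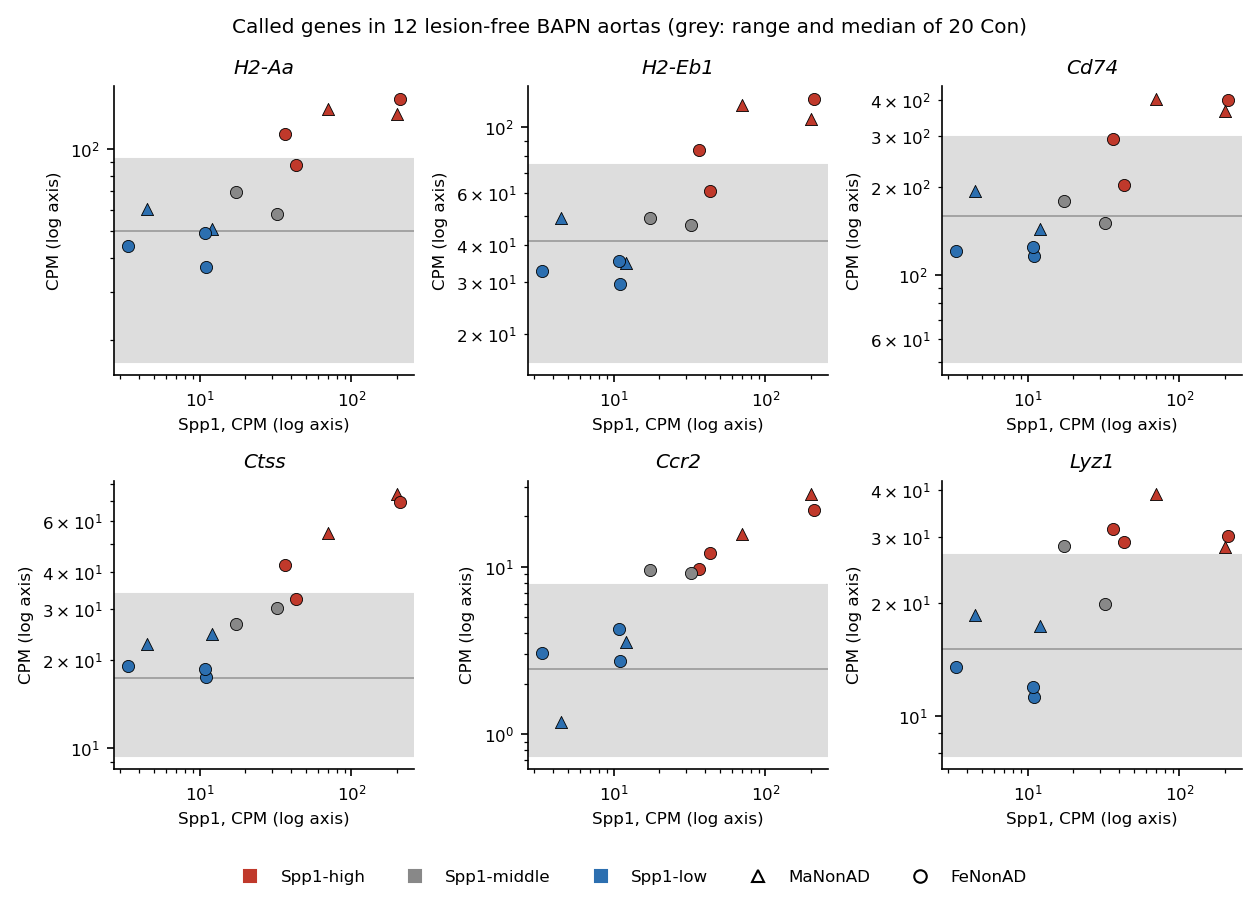
Each panel plots 1 gene's CPM (log axis) against Spp1 CPM (log axis) in the 12 lesion-free BAPN libraries; colour gives the Spp1 level, triangles are MaNonAD and circles FeNonAD, and the grey band and line are the range and median of 20 Con libraries. All 5 Spp1-high points lie above all 5 Spp1-low points for H2-Aa, H2-Eb1, Cd74, Ctss, Ccr2 and Lyz1, and the low points lie within the Con range.

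Ccr2, Ctss and Lyz1 made up the rest of the 6. Ccr2 had the largest rise, at 27.3, 15.6, 21.7, 12.1 and 9.68 CPM in the high libraries against 3.57, 1.19, 2.74, 4.21 and 3.06 CPM in the low. No high library reached down to a low one, and the log2 fold change was 2.50 ± 0.35 (SE, BH-adjusted p = 0.0382), or 5.67-fold. Over the 9 tested genes of the monocyte list, to which Ccr2 belongs, 2 were higher and 1 lower at an unadjusted p under 0.05 (all genes 7.08% and 5.02%), and the median of 0.38 became 0.03 without both libraries above 100 CPM of Spp1. Ctss, which encodes cathepsin S, stood at 74.3, 54.4, 69.4, 32.3 and 42.2 CPM against 24.6, 22.7, 17.6, 18.7 and 19.1 CPM. It rose by 1.38 ± 0.18 on the log2 scale (SE, BH-adjusted p = 0.0286), again without overlap. Lyz1, a lysozyme, stood at 28.2, 39.1, 30.2, 29.0 and 31.6 CPM against 17.4, 18.6, 11.3, 12.0 and 13.5 CPM. Its rise was 1.12 ± 0.13 (log2, SE, BH-adjusted p = 0.0174), and no high library overlapped with a low one. Lyz1 and Ccr2 hold reads that the counting shared out between genes, and Lyz1 has a close copy, Lyz2, so the level of Lyz1 is uncertain.

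The water controls place these levels. In every Spp1-low library all 6 genes were within the range of the 20 Con libraries. H2-Aa exceeded the highest Con value, 91.9 CPM, in 4 of the 5 Spp1-high libraries, and Ccr2 exceeded its own, 7.80 CPM, in 5 of 5. The 2 middle FeNonAD libraries, which took no part in the test, fell between the low and the high FeNonAD libraries for 6 of the 6 genes. H2-Aa, for example, was at 58.1 and 69.9 CPM in FeNonAD3 and FeNonAD4. Of the 483 genes that were higher without overlap in both groups, both middle libraries fell between for 65, or 13.5%. The 6 genes were picked for a clear gap between these same high and low libraries, and a clear gap makes such a place more likely. The 483 genes were not matched to them in gap, so the middle libraries give no separate support.

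Within MaNonAD alone, 2 against 2 libraries, the log2 fold change of H2-Aa was 1.25 ± 0.24 (SE), and that of Ccr2 was 3.12 ± 0.48 (SE). In FeNonAD, 3 against 3, they were 1.45 ± 0.22 and 2.13 ± 0.34. Over the 4 MaNonAD libraries alone 0 genes passed the adjusted test in edgeR, and 469 had an unadjusted p under 0.05. The 6 genes had log2 fold changes of 0.86 or more there, with adjusted p up to 0.944.

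All 16 pan-macrophage genes were higher at an unadjusted p under 0.05, where 7.08% of all genes were, and 13 did not overlap within either group, where 3.49% did not. Their median log2 fold change was 0.97. Their summed level was 710 to 1286 CPM in the Spp1-high and 435 to 700 CPM in the Spp1-low libraries, with 283 to 803 CPM in Con. In bulk RNA, fewer cells of a type and less RNA per cell cannot be told apart. Mpeg1, a pore-forming protein of phagocytes, was at 91.9, 27.5, 44.4, 20.4 and 35.2 CPM against 13.2, 7.11, 9.17, 12.8 and 8.28 CPM. Its log2 fold change was 2.03 ± 0.37 (SE, BH-adjusted p = 0.0582), with no overlap. Fcgr1, the high-affinity IgG receptor, had 1.60 ± 0.33 (SE, BH-adjusted p = 0.0673), Cd68, a lysosomal marker, 1.01 ± 0.21 (SE, BH-adjusted p = 0.0682), and Csf1r, the receptor of macrophage colony-stimulating factor, only 0.44 ± 0.10 (SE, BH-adjusted p = 0.0894).

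Of 12 markers of macrophages that reside in the healthy artery, 3 were higher at an unadjusted p under 0.05 (all genes 7.08%), and the median log2 fold change was 0.12. Lyve1, a hyaluronan receptor, was at 36.8, 46.8, 58.9, 30.9 and 32.5 CPM in the high and 50.8, 52.0, 45.1, 30.2 and 64.4 CPM in the low libraries. The groups overlapped fully, with a log2 difference of -0.26 ± 0.22 (SE). F13a1, coagulation factor XIII A, differed by 0.14 ± 0.14 and Cd163, the haptoglobin-haemoglobin scavenger receptor, by -0.22 ± 0.21 (log2, SE). The list also holds Ccl8, a chemokine that attracts monocytes, which was at 2.70, 11.8, 6.55, 3.90 and 2.82 CPM against 0.990, 0.686, 0.891, 0.134 and 0.382 CPM. Its log2 fold change was 3.14 ± 0.51 (SE, BH-adjusted p = 0.0526), without overlap.

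Lipid-handling macrophage genes, a program with which Spp1 itself is often found, had a median of 0.29, and 6 of 18 tested were higher at an unadjusted p under 0.05 (all genes 7.08%). That median was 0.17 without both libraries above 100 CPM of Spp1, 0.40 over MaNonAD, 0.19 over FeNonAD and 0.50 with Dbp level in the fit. Trem2, a lipid-sensing receptor, was at 18.7, 8.21, 9.41, 2.69 and 4.72 CPM against 2.11, 3.49, 2.55, 1.60 and 2.93 CPM. FeNonAD5 lay within the range of the low libraries, and the log2 fold change was 1.64 ± 0.39 (SE, BH-adjusted p = 0.0967). Gpnmb, a membrane glycoprotein of lipid-laden macrophages, had 0.42 ± 0.20 (SE), the fatty acid carrier Fabp5 0.33 ± 0.21 and the tetraspanin Cd9 -0.19 ± 0.10.

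Of 16 chemokines tested, 10 were higher at an unadjusted p under 0.05 (7.08% of all genes) with a median of 0.99, and none passed the adjusted test in edgeR, where DESeq2 called 4 of 18 (1.41% of all genes). Ccl2, the main ligand of CCR2, was at 2.58, 1.90, 18.4, 2.62 and 1.10 CPM against 1.58, 0.811, 0.382, 1.07 and 0.382 CPM. FeNonAD8 held by far the most. High and low libraries overlapped over all 10 but not within MaNonAD or within FeNonAD, and the log2 fold change of 2.47 ± 0.87 (SE) had an adjusted p of 0.255. Ccl5, a T cell chemokine, had 0.97 ± 0.51 (SE, BH-adjusted p = 0.527). Of 18 inflammatory cytokine and receptor genes, 5 were higher at an unadjusted p under 0.05 (all genes 7.08%). Their median of 0.55 became 0.07 without both libraries above 100 CPM of Spp1. Il1b, the inflammatory cytokine interleukin-1 beta, was at 0.880, 0.722, 4.07, 1.54 and 0.0613 CPM against 0.330, 0.312, 0.191, 0 and 0.255 CPM, with FeNonAD6 below most low libraries. Interferon-stimulated genes numbered 7 of 15 at that limit, and Isg15, a ubiquitin-like modifier, stood at 13.1 CPM in MaNonAD1 against 3.33 to 4.39 CPM in the other high libraries.

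Other blood cells were less clear. Of 12 T cell genes, 2 were higher at an unadjusted p under 0.05 (median 0.71), where 7.08% of all genes were. The median was -0.61 over MaNonAD, 1.60 over the 9 genes tested in FeNonAD and -0.53 with Dbp level in the fit, and the summed level ranged from 43.3 to 108 CPM in the high and from 31.1 to 94.5 CPM in the low libraries. Of 9 B cell genes none was past that limit in either direction in edgeR (median 0.06), with medians of -0.49 over MaNonAD and 0.61 over the 4 genes tested in FeNonAD. Among 5 tested neutrophil genes 1 was higher, and S100a8, a calcium-binding alarmin, had a maximum of 1.28 CPM over the 10 libraries. Their part in the result was not tested. Erythroid genes were lower at the median (-1.08), and 3 of 6 tested were lower at an unadjusted p under 0.05, where 5.02% of all genes were. That median was -1.89 over MaNonAD and -0.50 over the 5 genes tested in FeNonAD. Hbb-bs, a beta globin with shared-out reads, was highest in MaNonAD4 at 1726 CPM and between 60.2 and 669 CPM in the other 9 libraries.

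**Figure D2:**
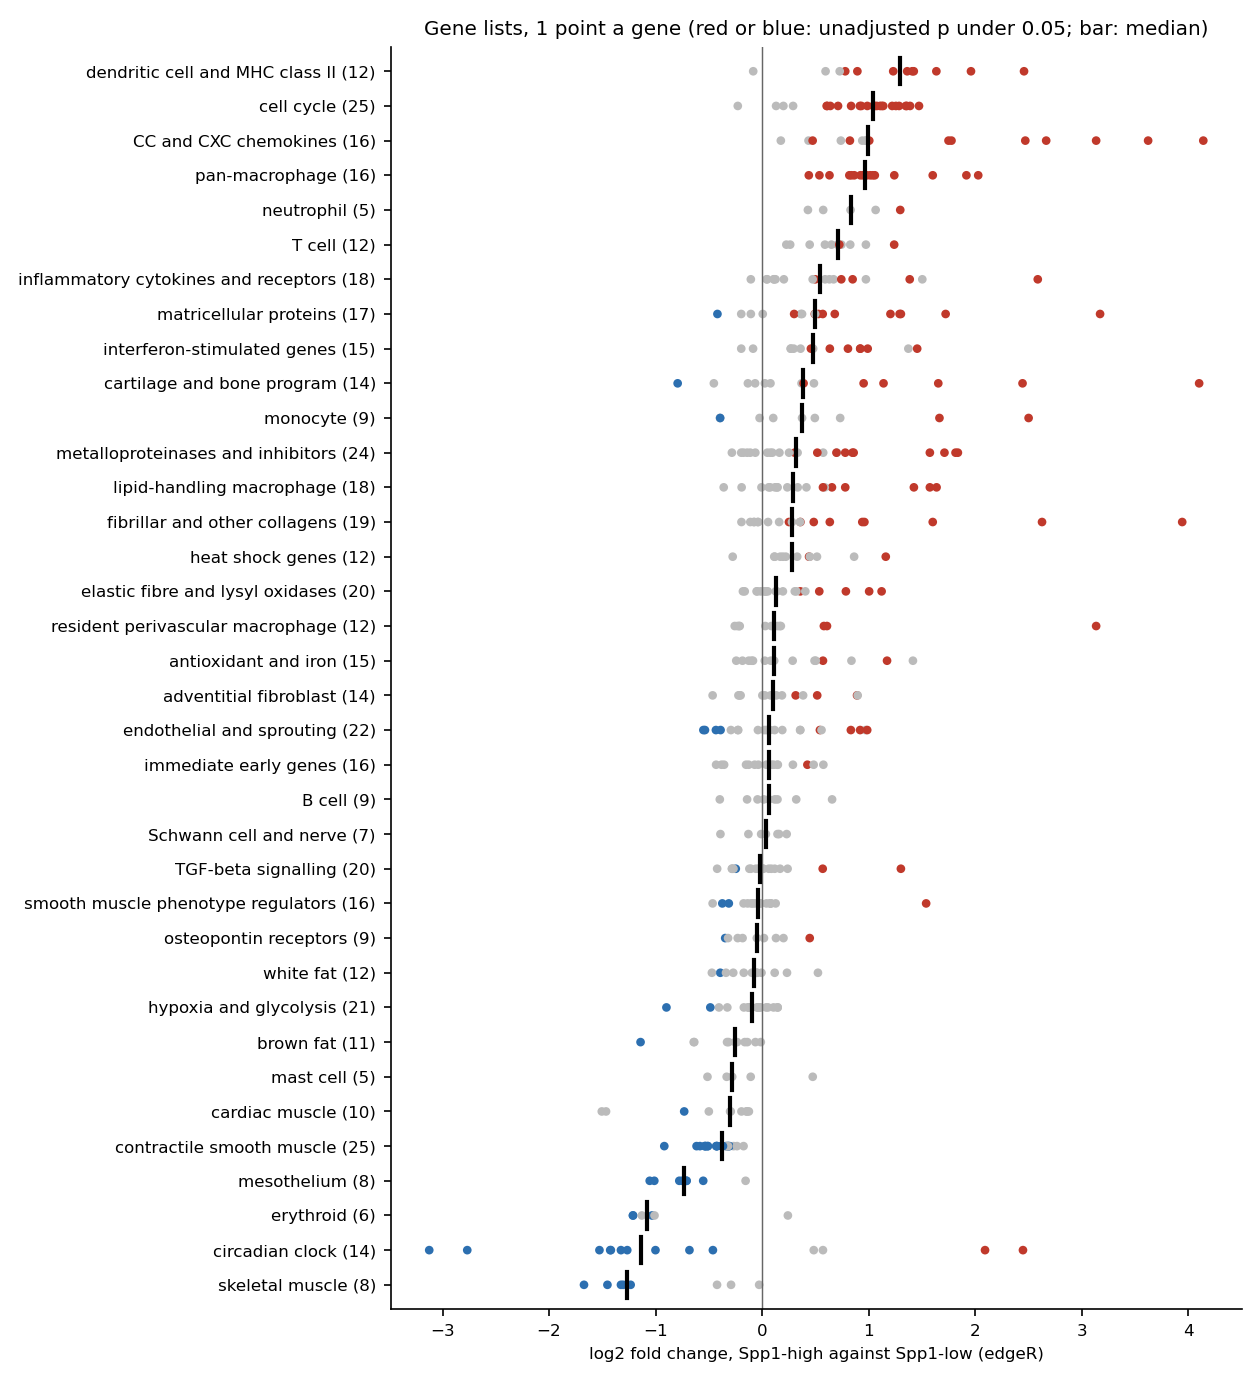
Each point is 1 gene's log2 fold change, Spp1-high against Spp1-low (horizontal axis), in the 36 gene lists, ordered by their median (black bar), with the number of genes tested in parentheses; red and blue points had an unadjusted p under 0.05. The median was 1.30 for dendritic cells and MHC class II, 1.04 for the cell cycle, 0.97 for pan-macrophage genes, -0.38 for contractile smooth muscle and -1.27 for skeletal muscle.

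The summed level of 25 contractile smooth muscle genes was 40122, 52650, 44081, 47424 and 52226 CPM in the high and 58506, 59314, 70944, 64211 and 62388 CPM in the low libraries, without overlap. All 25 genes had a negative log2 fold change (median -0.38), and 18 were lower at an unadjusted p under 0.05, where 5.02% of all genes were. Only 4 did not overlap within either group, where 1.39% of all genes did not overlap in that direction. Myh11, the smooth muscle myosin heavy chain, had -0.53 ± 0.11 (SE, BH-adjusted p = 0.0647), Des, the intermediate filament desmin, -0.92 ± 0.26 (SE, BH-adjusted p = 0.159), and Acta2, smooth muscle actin, -0.51 ± 0.16 (SE, BH-adjusted p = 0.186). Cnn1, the actin-binding calponin, had -0.53 ± 0.17 (SE, BH-adjusted p = 0.184), and MaNonAD1 was lowest at 957 CPM.

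Of 19 collagen genes, 9 were higher at an unadjusted p under 0.05, where 7.08% of all genes were, with a median of 0.28. Col8a1, a short-chain collagen of vessel walls, was at 233, 48.3, 233, 30.8 and 64.5 CPM against 18.3, 17.0, 16.7, 28.4 and 15.7 CPM. The groups did not overlap, and both libraries above 100 CPM of Spp1, MaNonAD1 and FeNonAD8, stood far above the rest. Its log2 fold change was 2.63 ± 0.58 (SE, BH-adjusted p = 0.0895). Col11a1, a minor fibrillar collagen typical of cartilage, was at 8.74, 1.31, 26.8, 0.768 and 2.57 CPM against 0.792, 0.125, 0.318, 0.601 and 0.637 CPM (log2 fold change 3.94 ± 1.03, SE, BH-adjusted p = 0.138). Col3a1, a main fibrillar collagen of the wall, had 0.64 ± 0.17 (SE, BH-adjusted p = 0.133) and Col1a1, the alpha chain of type I collagen, 0.49 ± 0.18 (SE, BH-adjusted p = 0.258).

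Cthrc1, a secreted protein of activated wall fibroblasts and muscle cells, was likewise highest in these 2 libraries, at 38.6, 11.2, 49.8, 4.54 and 10.1 CPM against 2.11, 2.12, 2.55, 3.41 and 2.23 CPM. Even the low libraries exceeded the Con maximum of 2.02 CPM in 5 of 5 cases, and the log2 fold change was 3.17 ± 0.65 (SE, BH-adjusted p = 0.0745). Among other matricellular genes, Thbs1, thrombospondin 1, had 1.30 ± 0.45 (SE, BH-adjusted p = 0.251) and Tnc, tenascin C, 0.36 ± 0.17 (SE, BH-adjusted p = 0.442). In all, 10 of 17 matricellular genes were higher and 1 lower at an unadjusted p under 0.05, against 7.08% and 5.02% of all genes.

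Eln, which encodes elastin, was at 24778, 28719, 38618, 22638 and 31318 CPM against 24275, 11712, 15599, 14003 and 6949 CPM. MaNonAD4 lay within the range of the high FeNonAD libraries, though neither MaNonAD nor FeNonAD overlapped within itself, and the log2 fold change was 1.00 ± 0.29 (SE, BH-adjusted p = 0.172). Lox, a lysyl oxidase and target of BAPN, had 1.12 ± 0.31 (SE, BH-adjusted p = 0.158), with 486 to 1143 CPM in the high and 176 to 560 CPM in the low libraries. The microfibril gene Fbn1 had 0.54 ± 0.17 (SE, BH-adjusted p = 0.206). Of 20 genes of elastic fibres and lysyl oxidases, 5 were higher at an unadjusted p under 0.05, against 7.08% of all genes.

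Proteases and their inhibitors had 10 of 24 genes higher at that limit, against 7.08% of all genes. Mmp2, a gelatinase, was at 904, 615, 1060, 484 and 657 CPM against 421, 361, 423, 418 and 405 CPM. The groups did not overlap, and the log2 fold change was 0.85 ± 0.19 (SE, BH-adjusted p = 0.0809). Mmp12, the macrophage elastase, had 1.57 ± 0.38 (SE, BH-adjusted p = 0.104), and Timp1, an inhibitor of metalloproteinases, 1.84 ± 0.59 (SE, BH-adjusted p = 0.214), with 336 CPM in FeNonAD8.

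Of 14 tested genes of the cartilage and bone program, 6 were higher and 1 lower at an unadjusted p under 0.05, again against 7.08% and 5.02% of all genes. Their median of 0.38 became 0.03 without both libraries above 100 CPM of Spp1. Col10a1, a collagen of hypertrophic cartilage, was at 23.4, 0.919, 21.7, 0.576 and 12.6 CPM against 0.462, 0.562, 0.509, 1.07 and 0.764 CPM. MaNonAD1, FeNonAD8 and FeNonAD6 stood at 12.6 CPM or more, and MaNonAD3 and FeNonAD5 lay within the low range (log2 fold change 4.10 ± 1.00, SE, BH-adjusted p = 0.116). Col2a1, the main cartilage collagen, had 2.44 ± 0.65 (SE, BH-adjusted p = 0.143), Runx2, a regulator of bone formation, 0.95 ± 0.28 (SE, BH-adjusted p = 0.170), and the cartilage regulator Sox9 0.37 ± 0.21 (SE, BH-adjusted p = 0.600).

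**Figure D3:**
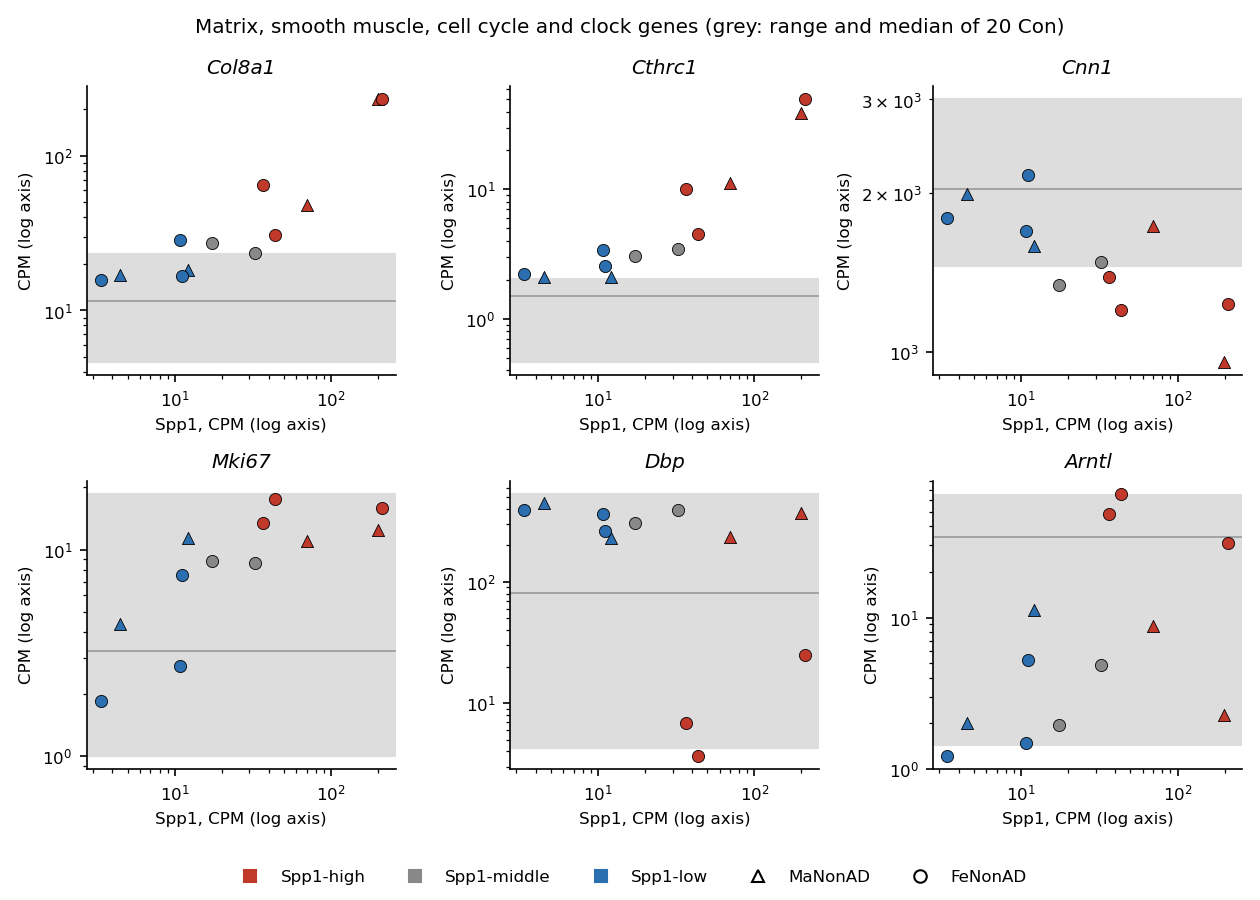
CPM (log axis) of Col8a1, Cthrc1, Cnn1, Mki67, Dbp and Arntl against Spp1 CPM (log axis) in the 12 lesion-free BAPN libraries, with the marks and the grey Con band as for the called genes. Col8a1 reached 233 CPM in both libraries above 100 CPM of Spp1, and the 3 Spp1-high FeNonAD circles alone lie at 3.65 to 24.7 CPM of Dbp.

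Of 25 cell cycle genes, 21 were higher at an unadjusted p under 0.05, where 7.08% of all genes were, and 12 did not overlap within either group, where 3.49% did not. None passed the adjusted test in edgeR, DESeq2 called 9 (1.41% of all genes), and their median was 1.04. Mki67, a marker of dividing cells, was at 12.4, 11.0, 16.0, 17.7 and 13.4 CPM against 11.4, 4.37, 7.51, 2.74 and 1.85 CPM. MaNonAD4 overlapped with the high libraries, and the log2 fold change was 1.35 ± 0.43 (SE, BH-adjusted p = 0.206). Top2a, which untangles replicated DNA, had 1.22 ± 0.36 (SE, BH-adjusted p = 0.175), and the cyclins Ccna2 and Ccnb1 had 1.12 ± 0.34 and 1.29 ± 0.37 (SE). The list's median was 0.60 over MaNonAD and 1.23 over FeNonAD, a difference that was not tested, and with Dbp level in the fit it was 0.56. That fit gave a median of 1.17 for pan-macrophage genes and 1.43 for MHC class II and dendritic cell genes.

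Of 10 receptors of osteopontin, Itgb6 was at or below 0.192 CPM and was not tested. Cd44 was at 57.8, 57.2, 98.9, 61.2 and 50.5 CPM against 51.4, 33.1, 50.9, 56.5 and 42.1 CPM. The groups overlapped, with 0.45 ± 0.19 on the log2 scale (SE, BH-adjusted p = 0.344). Among the integrin alpha chains, Itga5 had -0.35 ± 0.12, Itga8 -0.32 ± 0.17, Itga9 -0.18 ± 0.13, Itga4 -0.05 ± 0.21 and Itgav 0.02 ± 0.17 (log2, SE). The beta chains Itgb1, Itgb3 and Itgb5 had -0.23 ± 0.14, 0.20 ± 0.24 and 0.13 ± 0.11. None of these 9 tested receptors passed the adjusted test in edgeR, 2 were past an unadjusted p of 0.05, where 12.1% of all genes were in either direction, and their median was -0.05.

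Genes of TGF-beta signalling had a median of -0.02 over 20 genes, and Tgfb1, its first ligand, 0.17 ± 0.12 (SE). The 14 adventitial fibroblast genes had a median of 0.11, with 0.32 ± 0.14 (SE) for the matrix protein gene Dpt, and the 22 endothelial genes a median of 0.07. Pecam1, an endothelial adhesion molecule, had -0.43 ± 0.12 (SE, BH-adjusted p = 0.152).

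Among markers of tissues that surround the aorta, no gene of the skeletal muscle, mesothelium and white fat lists passed the adjusted test in edgeR, while DESeq2 called 2 skeletal muscle genes and 1 mesothelial gene lower (0.154% of all genes). All 8 tested skeletal muscle genes had a negative log2 fold change (median -1.27), and 5 were lower at an unadjusted p under 0.05, where 5.02% of all genes were. Acta1, skeletal muscle actin, was at 1.76, 1.90, 1.40, 2.24 and 0.429 CPM against 6.27, 5.49, 3.50, 2.74 and 6.24 CPM, without overlap. Acta1 holds reads that the counting shared out between genes, so its level is uncertain. The list's summed level was 29.6 to 36.4 CPM against 31.8 to 47.8 CPM. Of 8 mesothelial genes 7 were lower at that limit (median -0.73), with a summed level of 66.6 to 114 CPM against 92.2 to 218 CPM. Upk3b, a marker of the lining of body cavities, had -1.05 ± 0.23 (SE, BH-adjusted p = 0.0769). The 12 white fat genes, 1 of them lower at that limit, had a median of -0.07, with -0.40 over MaNonAD, 0.10 over FeNonAD and -0.68 with Dbp level in the fit. The part of these tissues in the result was not tested.

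Outside the lists, Igf1, a growth factor made by macrophages and wall cells, had a log2 fold change of 0.62 ± 0.10 (SE, BH-adjusted p = 0.0502) without overlap. Dgkg, a diacylglycerol kinase, was nearest to the limit among lower genes, at 4.40, 4.86, 6.74, 5.69 and 4.47 CPM against 7.00, 10.5, 11.7, 13.2 and 10.9 CPM (log2 fold change -1.05 ± 0.16, SE, BH-adjusted p = 0.0502). Its low libraries were the ones apart from water controls, 4 of 5 lying above the Con maximum of 10.4 CPM and none of the high ones.

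The difference between high and low was itself compared between the sexes. Of 14013 genes, 2 passed (0.0143%), Hspa1a and Hspa1b, a near-identical pair of inducible heat shock genes whose reads were shared out. Hspa1b was at 62.0 and 61.9 CPM in the high and 97.1 and 63.2 CPM in the low MaNonAD libraries. In FeNonAD it was at 378, 383 and 458 CPM in the high and at 76.5, 99.2 and 97.2 CPM in the low libraries. The difference of the log2 fold changes, MaNonAD minus FeNonAD, was -2.57 ± 0.28 (SE, BH-adjusted p = 0.0148) for Hspa1b and -2.36 ± 0.26 (SE, BH-adjusted p = 0.0148) for Hspa1a. The 3 high FeNonAD libraries were the ones with low Dbp, and with FeNonAD1, FeNonAD2, FeNonAD6, FeNonAD7, MaNonAD1, MaNonAD3 or MaNonAD4 left out 0 genes passed in edgeR, with 221 to 659 at an unadjusted p under 0.05.

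Libraries that the choice did not use gave a separate view of the same genes. Over the 16 AAD libraries, the slope of each gene on log2(Spp1 CPM + 1) was tested within groups. Of 14253 genes 2452 rose (17.2%) and 1675 fell (11.8%), so a call is common there. Ccr2 rose by 0.51 ± 0.10 per log2 unit of Spp1 (SE, BH-adjusted p = 0.00188), Ctss by 0.50 ± 0.09 (SE, BH-adjusted p = 8.49e-04) and Lyz1 by 0.38 ± 0.07 (SE, BH-adjusted p = 0.00185). H2-Aa had a slope of 0.16 ± 0.09 (SE, BH-adjusted p = 0.195), H2-Eb1 0.17 ± 0.09 (SE, BH-adjusted p = 0.176) and Cd74 0.14 ± 0.08 (SE, BH-adjusted p = 0.190). So 3 of the 6 genes also rose with Spp1 among aortas with a dissection or aneurysm.

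Over AAD libraries, where 17.2% of all genes rose, 24 of 25 cell cycle, 14 of 16 pan-macrophage and 17 of 21 chemokine genes rose. The 2 of 14 MHC class II and dendritic cell genes that rose there were near that share, and 0 of 19 collagens rose in edgeR. Of 25 contractile genes 7 fell, where 11.8% of all genes did. Over all 12 NonAD libraries the same slope rose for 465 genes (3.35%) and fell for 68 (0.49%), with 14 of 16 pan-macrophage, 10 of 13 MHC class II and dendritic cell, 6 of 19 collagen and 4 of 25 cell cycle genes rising. The difference between AAD and NonAD libraries was not tested for lists. H2-Aa had a slope of 0.33 there (adjusted p = 0.00321) and Col8a1 0.70 (adjusted p = 6.43e-04).

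The difference of the slopes, NonAD minus AAD, was tested over the 28 BAPN libraries after these values were seen. No gene of 14389 passed the adjusted test in edgeR (0.0%), and 2863 had an unadjusted p under 0.05 (19.9%). For H2-Aa the unadjusted p was 0.200, so its slopes were not shown to differ. For Col8a1, with a slope of -0.22 ± 0.24 (SE) in AAD, the unadjusted p was 0.0017, and for Eln, with -0.14 ± 0.07 (SE), it was 2.75e-04.

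**Figure D4:**
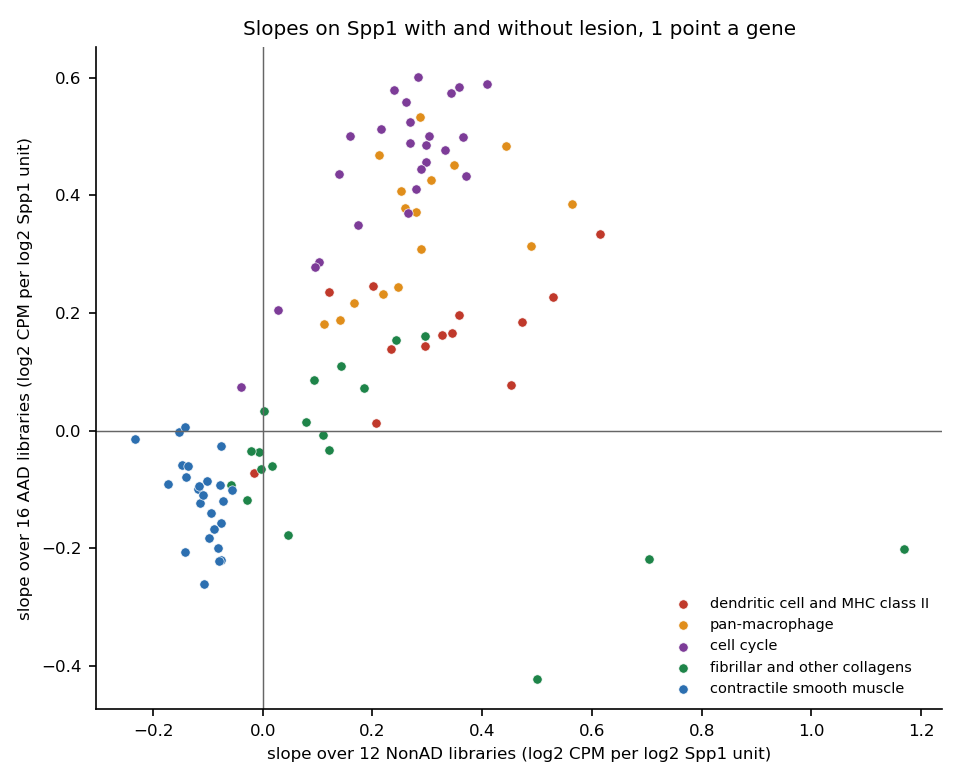
Each point is 1 gene of 5 lists, with its slope on log2(Spp1 CPM + 1) over 12 NonAD libraries (horizontal axis) and over 16 AAD libraries (vertical axis), in log2 units per log2 unit of Spp1. Cell cycle genes lie mostly above 0 on both axes, contractile genes mostly below 0 on both, and Col8a1 at 0.70 and -0.22.

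Over the 20 Con libraries, 3 of 13788 genes rose with Spp1 (0.0218%) and none fell in edgeR (0.0%). At an unadjusted p under 0.05, 453 were higher and 265 lower. The 3 were Myl2 and Myl3, light chains of heart muscle myosin, and Prox1, a transcription factor of lymphatic endothelium and heart. FeCon10 held the most of each, 61.1 CPM of Myl3 for example, and without that library, left out after seeing the data, 0 genes passed and 383 had an unadjusted p under 0.05. None of the 6 genes above passed over the Con libraries, which held only 0.877 to 4.53 CPM of Spp1. Slopes there were 0.91 ± 0.46 for Ccr2, 0.45 ± 0.22 for Ctss and 0.39 ± 0.26 for Lyz1 (SE). For H2-Aa, Cd74 and H2-Eb1 they were 0.04 ± 0.34, -0.06 ± 0.35 and -0.03 ± 0.32 (SE). Over so narrow a range of Spp1, a relation can be missed.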

How the data were processed

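RNA of the thoracic aorta had been sequenced by the authors, 1 library per mouse. The submitters' processing notes name Bowtie2, RSEM 1.3.1 and GRCm39. The authors deposited expected counts for 18782 genes, not scaled to library size, which were rounded to whole numbers (4.99% were not whole). Columns carry the sample names, and groups came from the labels. RSEM as a method shares out reads that match several genes, so counts of near copies are estimates. The counts carry no molecular identifiers, and totals ranged from 13548000 to 17281272 over the 48 libraries.

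Spp1-high and Spp1-low libraries were compared in edgeR 4.0.16 (R 4.3.3), using quasi-likelihood F tests, robust dispersions, filterByExpr, TMM scaling and group as covariate. Benjamini-Hochberg adjustment covered all genes tested except Spp1. A gene was called when its adjusted p lay under 0.05 and its level at least doubled or was at most 0.5 of the other, slopes by the adjusted p alone. Each SE is the fold change on the log2 scale divided by the root of F, an approximation. A gene's groups do not overlap within either group where its CPM separate high from low libraries in MaNonAD and in FeNonAD. The interaction of group and Spp1 level and the slopes over AAD and Con libraries used the same test. Alternatives tried were DESeq2 1.42.0, edgeR with DESeq2 size factors, all genes kept whatever their counts, the adjusted p without the fold limit, dispersions without robust estimation, all 48 libraries, a split at the median of or a slope over all 12 NonAD libraries, the group left out, library total as a covariate, each sex alone, the replicate number as a block, and each library left out. Dbp level as a covariate, an adjusted p under 0.1, leaving out both libraries above 100 CPM of Spp1 or FeCon10, and the difference of slopes were added after seeing the data. The scripts were tested on simulated data.

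The libraries and gene lists were chosen with earlier results of these data known. Named genes were all called genes averaging at least 10 counts, called interactions, up to 4 members of each list (called, then past the adjusted p, then the first listed) and every osteopontin receptor. Marcks, Ciita, Flt3, Xcr1, H2-DMa, H2-DMb1, Mpeg1, Folr2, Ccl8, Myh11, Col8a1, Col11a1, Cthrc1, Lox, Timp1, Mmp12, Col10a1, Dbp, Npas2, Ciart, Igf1 and Dgkg were chosen after their values were seen. Promoter sequences are from RefSeq on GRCm38.p6, matched by symbol for 10 of 14 genes of the MHC class II and dendritic cell list, and the counts were made on another build, so only these sequences carry positions. Calculations used Python 3.11.15 with pandas 2.3.3, and figures matplotlib 3.10.9. By the study's methods, each group was spread over several shared cages. The labels tie no mouse to a cage or litter, so the p-values treat each mouse as independent and take no account of shared cages.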

Additional observations from a re-analysis of the deposited data

Results flagged for a closer look

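Hspa1a and Hspa1b differed between the sexes in their high-low difference, by a test of that difference in edgeR. MaNonAD minus FeNonAD was -2.36 (log2) for Hspa1a and -2.57 for Hspa1b, with an adjusted p of 0.0148 for each. As the pair shares reads, these count as 1 observation. The high FeNonAD libraries were also the ones with low Dbp, so sex and clock gene level cannot be told apart here. In edgeR 0 genes passed without FeNonAD1, FeNonAD2, FeNonAD6 or FeNonAD7, 2 without FeNonAD5 and 4 without FeNonAD8.

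Within the 5 Spp1-high and the 5 Spp1-low libraries, each named gene was tested for a single library far from the other 4 by Dixon's limit of 0.71. Of 175 such sets 9 passed (5.14%), and chance gives about 1 in 20. Among Spp1-high libraries, FeNonAD8 was apart in Ccl2 at 18.4 CPM, where the others held 1.10 to 2.62 CPM. FeNonAD8 was also apart in Cd44 at 98.9 CPM, with 50.5 to 61.2 CPM in the others. MaNonAD1 was apart in Isg15 at 13.1 CPM (others 3.33 to 4.39 CPM) and in the clock gene Per1 at 196 CPM (others 106 to 119 CPM). FeNonAD5 was apart in Upk3b at 46.3 CPM (others 27.7 to 30.7 CPM). Among Spp1-low libraries, FeNonAD7 was apart in Acta2 at 24700 CPM and FeNonAD2 in Col8a1 at 28.4 CPM. FeNonAD1 was apart in Per1 at 210 CPM, with 156 to 170 CPM in the others, and MaNonAD2 in Mmp2, where it was lowest at 361 CPM.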

How the results depend on the processing

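The number of genes higher in Spp1-high libraries, 6 as reported, was 210 with DESeq2, 40 without a filter on low counts, 465 for the slope over all 12 NonAD libraries, 17 over FeNonAD alone, 2 with the group left out, and 0 over MaNonAD alone, with library total added (1463 at an unadjusted p under 0.05) or with Dbp added. It was 10 without both libraries above 100 CPM of Spp1 and 111 at an adjusted p under 0.1. With each library left out in turn it ran from 0 to 63. The number lower, 0 as reported, was 23 with DESeq2, 3 without a filter, 3 for a split of the 12 libraries at the median, 68 for the slope, 15 over FeNonAD alone, 12 at an adjusted p under 0.1, and 0 to 11 with a library left out. The 6 genes were higher under every alternative, and DESeq2, DESeq2 size factors, no filter and no robust estimation called 6 of 6. The fit to all 48 libraries called 6 genes but 0 of these 6, FeNonAD alone and the median split called 1 of them each, the group left out 2, and the slope and the fit without both libraries above 100 CPM 5. With DESeq2 9 genes differed between the sexes, and 0 to 4 with a library left out. The cause of these shifts was not tested.

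Over AAD libraries, 2452 genes rising became 2700 with DESeq2, and with the replicate number as a block 0 rose and 0 fell, with 936 at an unadjusted p under 0.05. Over Con libraries 15 rose with DESeq2, 0 with the block (1107 at an unadjusted p under 0.05) and 0 without FeCon10. Same-numbered AAD libraries had correlations of -0.0885 to 0.445 in their deviations, so the numbers were not taken as pairs. No paired analysis was possible for high against low because the high and low libraries share only the number 1.

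Of 2126 values of named genes (log2) under the alternatives, 30 turned direction. With Dbp added, Folr2 was -0.0573, S100a8 -0.0577, S100a9 -0.489, Itgav -0.174, Itgb3 -0.319, Itga4 0.172, Arntl -0.238 and Npas2 -0.0654. Over MaNonAD alone, Folr2 was -0.0768, S100a9 -0.353, Itgav -0.174, Itgb3 -0.163, Itga4 0.215 and Arntl -0.296. Folr2 was -0.0369 for the slope, Itgav -0.0812 for the median split, Itga4 0.050 with library total, and without both libraries above 100 CPM Plac8 was -0.0516 and Itgav -0.0202. With a library left out, Folr2 ran from -0.143 to 0.290, Plac8 from -0.0212 to 0.925, Itgav from -0.0780 to 0.176 and Itga4 from -0.209 to 0.117.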

Other observations

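Lists of other tissues and states were also compared between Spp1-high and Spp1-low libraries. All 10 tested cardiac muscle genes had a negative log2 fold change (median -0.30), and 1 was lower at an unadjusted p under 0.05 in edgeR, where 5.02% of all genes were. The median was -0.19 over MaNonAD, -0.74 over FeNonAD, -0.66 without both libraries above 100 CPM of Spp1 and -0.03 with Dbp level in the fit. Their summed level was 73.3 to 90.9 CPM in the high and 92.4 to 162 CPM in the low libraries, without overlap. All 11 brown fat genes were likewise negative (median -0.25), 1 of them at that limit, but over FeNonAD 6 of 11 were positive (median 0.03), while the median was -0.66 over MaNonAD and -1.03 with Dbp level in the fit. Their summed level overlapped, with medians of 1395 CPM in the high and 1429 CPM in the low libraries. Of 21 genes of hypoxia and glycolysis 16 were negative and 2 were lower at that limit (median -0.10, with -0.16 over MaNonAD and 11 of 21 positive over FeNonAD). The part of these tissues in the comparison was not tested.

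Of 12 heat shock genes, 11 had a positive log2 fold change and 2 were higher at an unadjusted p under 0.05 (median 0.28), where 7.08% of all genes were. The median was -0.23 over MaNonAD and 0.71 over FeNonAD, and -0.20 with Dbp level in the fit. The difference between the sexes was tested for single genes only. Plac8, a protein of myeloid cells, was at 4.99 to 28.9 CPM in the high and 4.33 to 9.49 CPM in the low libraries, with overlap. The 16 immediate early genes had a median of 0.06 (0.38 over MaNonAD and -0.21 over FeNonAD), the 15 antioxidant and iron genes 0.11, and the 16 regulators of smooth muscle phenotype -0.04.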
